A study of Rattus norvegicus with 20 samples.

Results

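T cell and cytotoxic lymphocyte genes were followed in inguinal white adipose tissue (iWAT) of rats, as 34 genes taken by name from a table of 32545 genes. They are the genes of the T cell receptor complex and its accessory molecules, the coreceptors, the first signalling proteins behind the receptor, the receptors and the transcription factor that tune activation, 4 further transcription factors, and the granule proteins of cytotoxic cells. The 34 names filled 35 rows of the table, because Gzmb is listed at 2 positions. Of these rows 33 had enough reads to be tested among 17653 genes. Pdcd1, the gene of the inhibitory receptor PD-1, and the other Gzmb row had 0 reads in all 20 libraries. For Pdcd1 this allows at most 0.0388 to 0.0919 CPM (reads of the gene scaled to the reads counted in its library) depending on the library, taking 3 reads as the limit. The other Gzmb row overlaps further genes on its own strand, also at 0 CPM, and only uniquely mapped reads were counted. Its 0 reads therefore set no such limit.

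A T cell recognises antigen through its receptor, whose CD3 chains and CD247 carry the signal into the cell, while CD4 or CD8 binds the presenting molecule beside it. The kinases LCK and ZAP70 then phosphorylate the scaffolds LAT and LCP2, and a second signal from CD28 or ICOS decides how fully the cell is activated. CTLA4, PD-1, LAG3, TIM-3 (Havcr2) and TIGIT restrain that response, FOXP3 defines regulatory T cells, and cytotoxic cells kill through perforin and granzymes. In adipose tissue, T cells of several kinds live beside macrophages, and their numbers and states are known to shift with obesity in rodents.

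The rats were male ZSF1 rats, a hybrid line carrying the leptin receptor alleles Lepr fa and Lepr cp, all fed a high carbohydrate chow and about 32 weeks old at the end of a 10-week study. Cmpd 1 rats were obese rats whose chow contained Cmpd 1, an ATP-competitive inhibitor of protein kinase C alpha and beta that the study describes as also active on protein kinase C theta, an isoform known from T cells. Food matched rats were obese rats without drug, given about as much chow as the Cmpd 1 rats had eaten the week before. Obese rats lack functional leptin receptor and ate freely, and Lean rats, from the same cross but without that deficiency, also ate freely. Each group had 5 rats, 1 library each. The study describes them as randomly selected from each group, and its Lean group held only 5 rats. Obesity here rests on lost leptin receptor signalling in 1 line and in males, and Cmpd 1 rats shared that genotype with both other obese groups.

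Libraries held 31716457 to 65759306 counted reads in Cmpd 1 rats, 54649679 to 74784655 in Food matched rats, 56743417 to 70206686 in Obese rats and 50604956 to 68048796 in Lean rats. The tissue label held: the adipocyte gene Adipoq averaged 4571, 3306, 3986 and 6730 CPM in Cmpd 1, Food matched, Obese and Lean rats. Lean rats 1 and 2 and Food matched rat 5 stood apart by skeletal muscle genes, with Acta1 at 721, 1232 and 20.7 CPM in these 3 libraries. Results that rest on them are given without them as well. Genes were called when edgeR's quasi-likelihood test gave a Benjamini-Hochberg adjusted p under 0.05 and the fold exceeded 1.5, and every adjusted p in the text is of that kind, taken over all 17653 genes.

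The members were thinly expressed apart from Cd4. On a scale that corrects for gene length (RPKM, which divides CPM by the gene length in kilobases), Cd4 averaged 183 RPKM over the 20 rats, Lcp2 10.6, Lck 3.85 and Nkg7 3.13 RPKM, and the other 29 tested rows averaged from 3.04 RPKM for Cd3g down to 0.0411 RPKM for Themis. Themis had 0 to 13 reads per library, Tigit 0 to 15, Foxp3 2 to 30 and Gzmb 1 to 17, so single differences of these 4 genes rest on few reads. Icos, at 1.45 RPKM, lay close to Cd3e at 1.63 RPKM, while Ctla4 at 0.349 RPKM and Foxp3 at 0.0584 RPKM lay far lower.

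**Figure D1:**
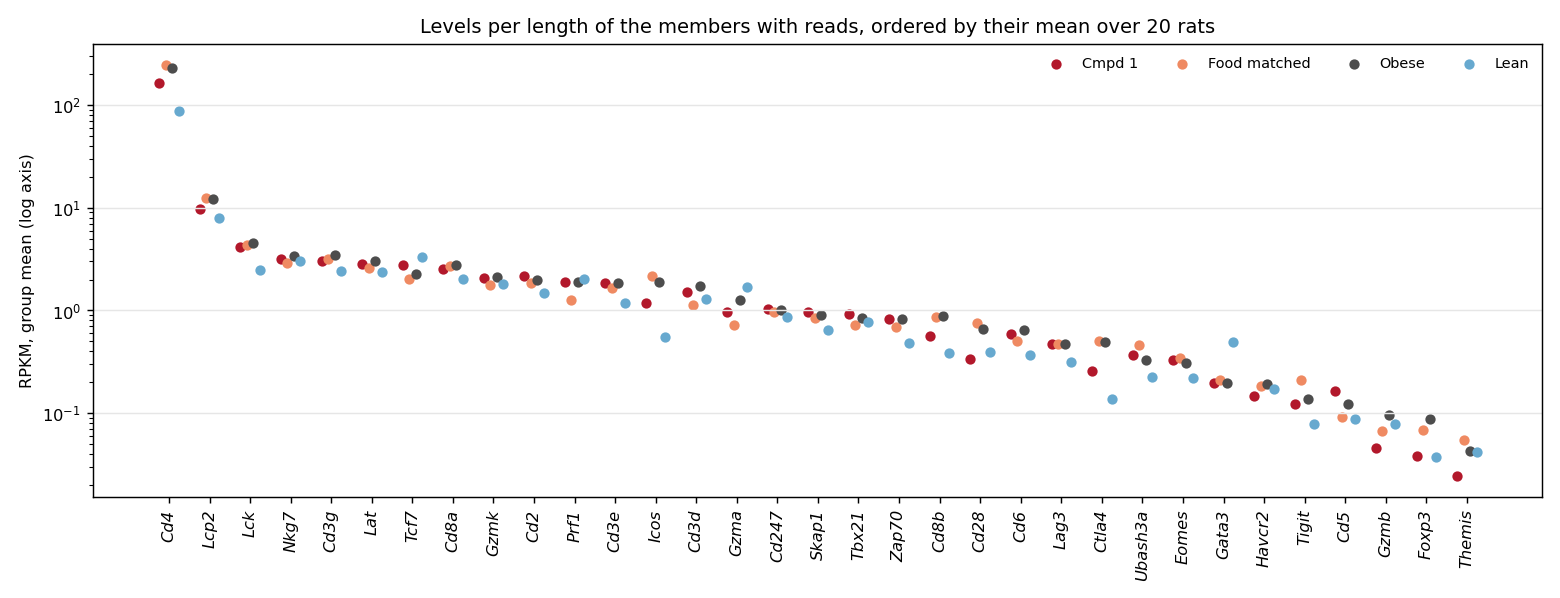
Group mean RPKM (log axis) of the 33 members with reads, ordered by the mean over 20 rats; each point is the mean of 5 rats, coloured by group. Cd4 lies far above all others at 163, 247, 232 and 88.2 RPKM in Cmpd 1, Food matched, Obese and Lean rats, and Icos, Ctla4 and Cd28 show the widest spacing between Food matched and Cmpd 1 points among genes with reads in every library.

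Obese iWAT held more T cell transcripts than Lean iWAT, with calls among the receptor and accessory chains, the coreceptors, the signalling proteins and the activation and regulatory genes. Of the 33 tested members 11 were called higher in Obese than in Lean rats (Cd3e, Cd6, Cd4, Cd8b, Lck, Zap70, Lcp2, Cd28, Icos, Ctla4 and Foxp3) and 1 was called lower (Gata3), where 11.3% of all genes tested were called higher and 11.0% lower. The median log2 fold change of the members was 0.47, with 29 of 33 above 0, beside a median of -0.01 over all genes. The Cd3e and Foxp3 calls were lost when some single rats were left out. In bulk tissue, more cells of a type and more RNA per cell cannot be told apart. Nor can transcripts of T cells be told from those of other cells that express the same gene, as for Cd4 and Lcp2.

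Cmpd 1 iWAT differed from Food matched iWAT in a narrower set. Cd4, Cd28, Icos and Ctla4 were called lower, 4 of 33, and Prf1 was called higher, where 4.65% of all genes were called lower and 1.54% higher. The median member log2 fold change was -0.05, beside 0.01 over all genes, and none of the 7 receptor and accessory chains was called in either direction. The plot of fold changes by role shows both comparisons side by side.

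**Figure D2:**
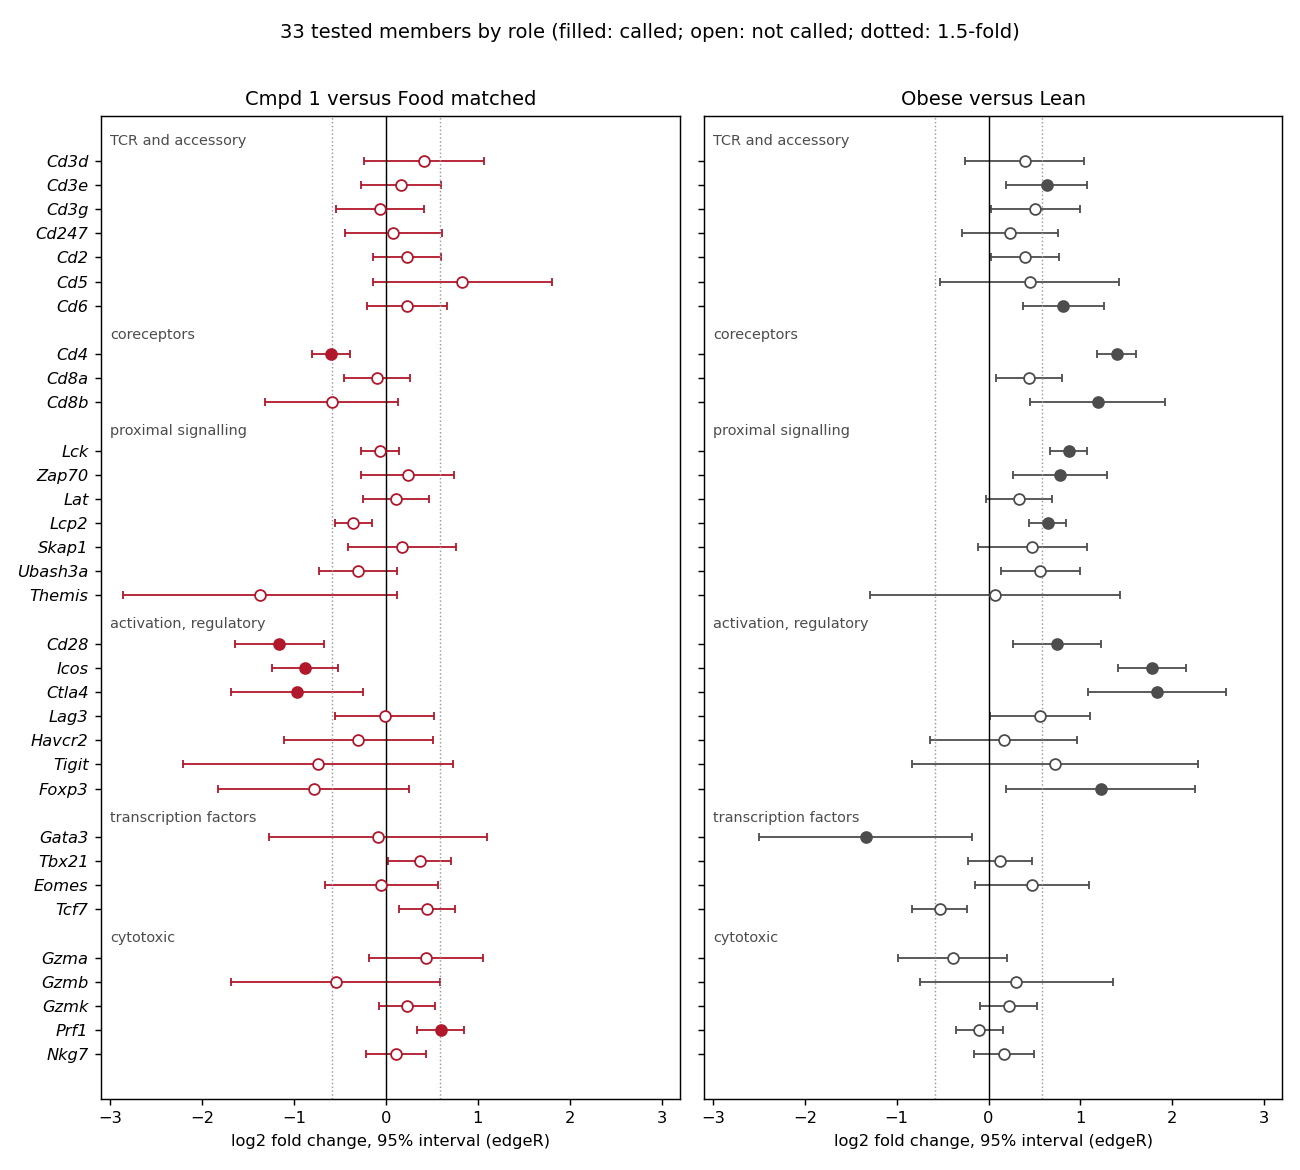
Log2 fold change of the 33 tested members with 95% intervals computed from edgeR's F statistics, in Cmpd 1 versus Food matched (left) and Obese versus Lean (right); filled points are called, open points are not, and dotted lines mark a 1.5-fold change. The 7 activation and regulatory genes all lie above 0 in Obese versus Lean and below 0 in Cmpd 1 versus Food matched, while 6 of the 7 receptor and accessory chains lie above 0 in both. Lag3 in Cmpd 1 versus Food matched and Havcr2 in Obese versus Lean changed sign when some single rats were left out.

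The receptor genes came first in the order of signalling. Cd3e, which encodes the epsilon chain of CD3, had 1.80, 3.60, 2.499, 3.43 and 2.48 CPM in Cmpd 1 rats and 2.14, 2.19, 2.08, 3.08 and 2.83 CPM in Food matched rats. In Obese rats it had 3.17, 3.52, 1.94, 3.00 and 2.28 CPM, against 1.37, 2.21, 1.96, 1.39 and 2.02 CPM in Lean rats. The Cmpd 1 and Food matched rats overlapped throughout, and 4 of 5 Obese rats lay above every Lean rat.

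Cd3e rose in Obese over Lean rats by a log2 fold change of 0.63 ± 0.21 (SE, adjusted p = 0.0155). That call was close to the fold limit: leaving out Lean rat 1, Lean rat 4, Obese rat 1 or Obese rat 2 brought the log2 fold change to between 0.54 and 0.58, under 1.5-fold, with adjusted p of at most 0.0447. Between Cmpd 1 and Food matched rats the log2 fold change was 0.16, with a 95% interval of -0.28 to 0.60 (adjusted p = 0.648). Cd3d, Cd3g and Cd247, the other signal-bearing chains, were called in neither comparison, at 0.39, 0.51 and 0.23 in Obese versus Lean and at 0.42, -0.07 and 0.08 in Cmpd 1 versus Food matched. Cd3g was called higher in Obese rats, at up to 0.62, when Lean rat 2, Lean rat 3, Obese rat 3 or Obese rat 5 was left out.

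Among the accessory molecules, Cd6, a scavenger-type receptor that joins the contact with the presenting cell, had 2.499, 2.92, 1.64, 2.38 and 2.00 CPM in Obese rats, against 0.861, 1.54, 1.495, 1.01 and 1.59 CPM in Lean rats. Every Obese rat lay above every Lean rat, and the log2 fold change was 0.81 ± 0.21 (adjusted p = 0.0030). Cd2, the adhesion receptor, and Cd5, an inhibitor of receptor signalling, gave 0.40 (adjusted p = 0.0656) and 0.45 (adjusted p = 0.447) and were not called. In Cmpd 1 versus Food matched rats the 3 genes lay at 0.23 for Cd6, 0.23 for Cd2 and 0.83 for Cd5, with adjusted p from 0.212 to 0.488. Summed over the 7 receptor and accessory genes, Cmpd 1, Food matched, Obese and Lean rats averaged 12.6 ± 2.43, 11.2 ± 2.44, 12.9 ± 2.67 and 9.02 ± 1.84 CPM (SD, n = 5 each).

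Cd4 was the member with the smallest adjusted p in Obese versus Lean. It had 307, 334, 269, 236 and 281 CPM in Cmpd 1 rats and 428, 509, 432, 423 and 372 CPM in Food matched rats. Obese rats had 351, 346, 451, 457 and 421 CPM, against 142, 145, 159, 174 and 151 CPM in Lean rats. No Cmpd 1 rat reached the lowest Food matched or Obese rat, and every one of them lay above all Lean rats.

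Cd4 rose in Obese over Lean rats by a log2 fold change of 1.39 ± 0.10, a fold of 2.63 (adjusted p = 1.48e-09), and fell in Cmpd 1 below Food matched rats by 0.60 ± 0.10 on the log2 scale (adjusted p = 0.000344). The second difference is 1.52-fold, just past the limit. It fell short of 1.5-fold, with adjusted p of at most 0.00154, without Food matched rat 2 (-0.53), Cmpd 1 rat 3 (-0.58) or Cmpd 1 rat 4 (-0.54).

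The level of Cd4 went beyond what the receptor genes of T cells showed. Cd4 was 94.8 ± 32.3 times as high as Cd3e per length in Cmpd 1 rats, 156 ± 38.6 times in Food matched rats, 133 ± 47.1 times in Obese rats and 77.2 ± 20.5 times in Lean rats (SD, n = 5). In rats, CD4 is also carried by monocytes and macrophages. The summed CPM of 12 macrophage markers averaged 5190, 9228, 7190 and 2433 in Cmpd 1, Food matched, Obese and Lean rats, the same order of groups as for Cd4. Gpnmb and Lyz2 were the largest parts of that sum in every obese group, and some other listed markers ranked the groups differently. The macrophages' part in the Cd4 differences was not tested.

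CD8 has 2 chains, and the genes for them gave different results. Cd8a, the alpha chain, had 2.65, 3.79, 4.33, 3.92 and 3.04 CPM in Cmpd 1 rats and 4.55, 3.18, 2.69, 3.69 and 4.82 CPM in Food matched rats. In Obese rats it had 5.06, 3.66, 3.02, 3.83 and 3.61 CPM, against 2.82, 2.53, 3.27, 2.64 and 2.90 CPM in Lean rats. The groups overlapped, and although the Obese versus Lean difference passed the adjusted p (0.0372), its log2 fold change of 0.44 was under the fold limit, so Cd8a was not called.

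Cd8b, the beta chain, which is more restricted to conventional cytotoxic T cells, had 1.26, 1.44, 1.56, 1.48 and 0.720 CPM in Obese rats, against 0.157, 0.551, 0.942, 0.352 and 0.810 CPM in Lean rats. Obese rat 5 lay among the Lean rats and the other 4 lay above all of them. The log2 fold change was 1.19 ± 0.34 (adjusted p = 0.00731). Cmpd 1 rats had 0.560, 0.754, 1.00, 0.643 and 1.19 CPM, against 1.27, 0.854, 1.32, 1.16 and 1.69 CPM in Food matched rats, and the difference of -0.59 (95% interval -1.31 to 0.13) was not called (adjusted p = 0.235).

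**Figure D3:**
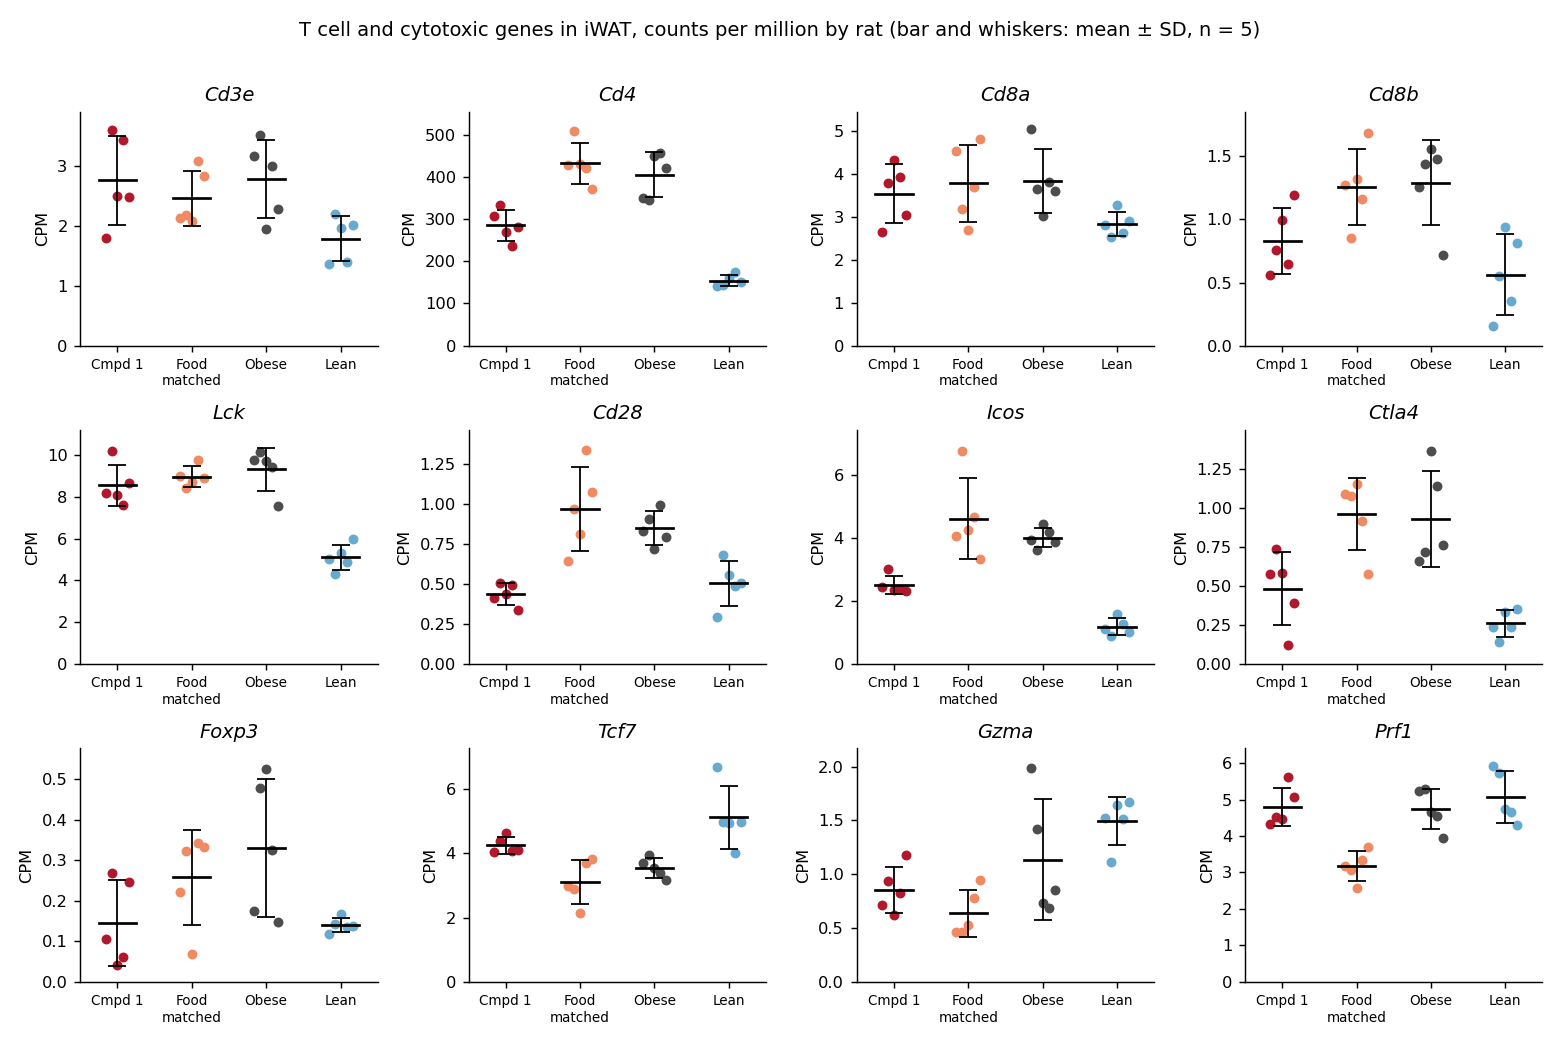
CPM by rat of 12 members in the 4 groups; points are rats, the long bar is the mean and the whiskers are 1 SD (n = 5). Cd4, Lck, Cd28, Icos and Ctla4 lie higher in Obese than in Lean rats without overlap, and Tcf7 lies lower. Cd4, Cd28 and Icos lie lower in Cmpd 1 than in Food matched rats without overlap, and Tcf7 and Prf1 lie higher. Prf1 is lowest in Food matched rats at 2.57 to 3.70 CPM.

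Of the 7 signalling proteins Lck, Zap70 and Lcp2 were called higher in Obese than in Lean rats, where 11.3% of all genes were. In Cmpd 1 versus Food matched edgeR called 0 of the 7, where 4.65% of all genes were called lower and 1.54% higher. Of the 7, 1 (Lcp2, lower) had an unadjusted p under 0.05 there. Lck, the kinase that starts receptor signalling, had 8.21, 10.2, 8.10, 7.63 and 8.68 CPM in Cmpd 1 rats and 9.0, 8.45, 8.71, 9.78 and 8.91 CPM in Food matched rats. Obese rats had 9.79, 10.2, 9.74, 9.44 and 7.55 CPM, against 5.03, 4.33, 5.34, 4.87 and 5.96 CPM in Lean rats. Every rat of the 3 obese groups lay above every Lean rat, and the Cmpd 1 and Food matched rats overlapped.

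Lck rose in Obese over Lean rats by a log2 fold change of 0.87 ± 0.10 (adjusted p = 2.8e-07), while Cmpd 1 versus Food matched gave -0.07 with a 95% interval of -0.27 to 0.14 (adjusted p = 0.695). Zap70, the kinase that LCK activates, had 2.15, 2.05, 2.03, 1.52 and 1.47 CPM in Obese rats, against 0.939, 1.16, 1.13, 0.520 and 1.62 CPM in Lean rats. Its 2 groups overlapped through Lean rat 5, and it rose by 0.78 ± 0.24 (adjusted p = 0.0114).

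Lcp2, the scaffold SLP-76, which myeloid cells also use, had 31.8, 39.0, 35.6, 27.8 and 31.2 CPM in Cmpd 1 rats and 43.7, 48.5, 34.6, 46.5 and 38.4 CPM in Food matched rats. Obese rats had 38.4, 42.4, 43.2, 42.2 and 41.6 CPM, against 24.5, 23.2, 28.4, 29.5 and 27.6 CPM in Lean rats. Obese and Lean rats did not overlap, and the log2 fold change was 0.64 ± 0.09 (adjusted p = 9.52e-06). It fell under the fold limit at 0.55 without Lean rats 1 and 2 (adjusted p = 0.000249). Cmpd 1 versus Food matched gave -0.36 (adjusted p = 0.00901), under the fold limit and not called.

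Lat, Skap1 and Themis, which encode a membrane scaffold, an adaptor for adhesion and a regulator of thymocyte selection, were not called in Obese versus Lean, at 0.33, 0.48 and 0.07. Ubash3a, a phosphatase-like negative regulator of receptor signalling, gave 0.57 ± 0.20 (adjusted p = 0.027), just under the fold limit, and it passed that limit when Lean rat 4, Lean rat 5, Obese rat 2 or Obese rat 5 was left out, at up to 0.69. None of the 4 was called in Cmpd 1 versus Food matched, where Themis had the widest interval, from -2.86 to 0.12. Themis was called lower without Cmpd 1 rat 4, at -2.39 (adjusted p = 0.025), and with all rats by limma-voom, while DESeq2 called 0 of the 7.

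The activation and regulatory genes showed the clearest pattern of the members, and 3 of them lie next to each other. In the rn6 assembly the files use, Cd28 (chr9:67546408-67571871), Ctla4 (chr9:67699379-67706065) and Icos (chr9:67763897-67785580) follow one another on the plus strand within 239.2 kb. Cd28 is the main costimulatory receptor of resting T cells, Icos is the costimulatory receptor that appears after activation, and Ctla4 competes with CD28 for the same ligands.

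Icos had 2.45, 3.02, 2.35, 2.36 and 2.30 CPM in Cmpd 1 rats and 4.07, 6.76, 4.23, 4.65 and 3.33 CPM in Food matched rats. Obese rats had 3.92, 3.63, 4.42, 4.19 and 3.85 CPM, against 1.12, 0.876, 1.57, 1.28 and 0.994 CPM in Lean rats. The Cmpd 1 rats formed a level of their own, with no overlap with the Lean rats below them or with the Food matched and Obese rats above them.

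Icos rose in Obese over Lean rats by 1.78 ± 0.18 on the log2 scale, a fold of 3.44 (adjusted p = 5.94e-08), and fell in Cmpd 1 below Food matched rats by 0.89 ± 0.17, a fold of 1.85 (adjusted p = 0.000958). Cmpd 1 rats were also called lower than Obese rats, at -0.68 ± 0.17 (adjusted p = 0.0121), and higher than Lean rats, at 1.10 ± 0.18 (adjusted p = 4.87e-05).

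Cd28 had 0.408, 0.503, 0.437, 0.490 and 0.334 CPM in Cmpd 1 rats and 0.644, 0.970, 0.813, 1.34 and 1.07 CPM in Food matched rats. Obese rats had 0.833, 0.906, 0.717, 0.993 and 0.793 CPM, against 0.294, 0.679, 0.554, 0.487 and 0.504 CPM in Lean rats. Cmpd 1 rats lay below every Food matched and every Obese rat and among the Lean rats, and Obese and Lean rats did not overlap.

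Cd28 rose in Obese over Lean rats by 0.74 ± 0.22 (adjusted p = 0.00946). It fell in Cmpd 1 rats by 1.16 ± 0.23 on the log2 scale below Food matched rats, a fold of 2.24 (adjusted p = 0.00119), and by 0.97 ± 0.23 below Obese rats (adjusted p = 0.00926). Both the Cd28 and the Icos calls in Cmpd 1 versus Food matched held when any 1 of the 10 rats was left out. With 15 to 98 reads per library for Cd28 and 57 to 523 for Icos, Cd28 is the less precise of the pair.

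Ctla4 had 0.575, 0.737, 0.583, 0.123 and 0.387 CPM in Cmpd 1 rats and 1.09, 1.07, 1.15, 0.916 and 0.574 CPM in Food matched rats. Obese rats had 0.658, 0.718, 1.36, 1.14 and 0.764 CPM, against 0.235, 0.141, 0.332, 0.235 and 0.352 CPM in Lean rats. Obese and Lean rats did not overlap, and Food matched rat 5 lay among the Cmpd 1 rats.

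Ctla4 rose in Obese over Lean rats by 1.83 ± 0.35, a fold of 3.57 (adjusted p = 0.00022). Its difference between Cmpd 1 and Food matched rats, -0.97 ± 0.34, was at the limit of the test (adjusted p = 0.0435). Leaving out any 1 of 8 of the 10 rats, all but Food matched rat 5 and Cmpd 1 rat 2, took the adjusted p above the threshold, up to 0.0988, with log2 fold changes from -1.17 to -0.75 over all 10. Ctla4 had 4 to 83 reads per library.

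The stretches before the starts of these 3 genes are shown because the genes are neighbours that moved together, with that of Prf1, the member that moved the other way. They are the 250 bases before each start in RefSeq's GRCr8, another assembly than that of the counts, at chr9:69660066-69660315 for Cd28, chr9:69813171-69813420 for Ctla4, chr9:69877549-69877798 for Icos and chr20:29788790-29789039 for Prf1, all on the plus strand. Capitals mark TGTGGT, the core bound by RUNX factors, and GGAAA, the core bound by NFAT factors, each on either strand, so that ACCACA and TTTCC are marked too.
Cd28: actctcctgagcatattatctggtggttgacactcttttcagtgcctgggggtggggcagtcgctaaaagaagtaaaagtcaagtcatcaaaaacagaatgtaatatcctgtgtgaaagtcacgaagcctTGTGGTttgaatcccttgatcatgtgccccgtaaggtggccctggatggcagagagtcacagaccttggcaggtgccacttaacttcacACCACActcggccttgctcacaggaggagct
Ctla4: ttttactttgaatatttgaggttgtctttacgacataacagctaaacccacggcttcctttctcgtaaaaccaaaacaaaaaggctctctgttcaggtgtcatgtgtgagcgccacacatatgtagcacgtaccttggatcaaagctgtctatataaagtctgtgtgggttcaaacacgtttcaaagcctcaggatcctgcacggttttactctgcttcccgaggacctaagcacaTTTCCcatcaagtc
Icos: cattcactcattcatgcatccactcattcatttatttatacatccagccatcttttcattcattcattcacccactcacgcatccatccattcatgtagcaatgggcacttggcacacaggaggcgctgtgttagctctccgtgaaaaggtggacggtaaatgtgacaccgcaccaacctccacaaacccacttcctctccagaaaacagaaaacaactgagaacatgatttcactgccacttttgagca
Prf1: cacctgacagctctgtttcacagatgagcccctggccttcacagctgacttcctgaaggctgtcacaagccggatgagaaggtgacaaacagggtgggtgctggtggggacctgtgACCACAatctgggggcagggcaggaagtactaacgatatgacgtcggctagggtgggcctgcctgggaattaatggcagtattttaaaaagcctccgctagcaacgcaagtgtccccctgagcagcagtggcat
Cd28 held 2 matches to TGTGGT, Prf1 held 1, Ctla4 held 1 match to GGAAA and Icos held neither. Of the 34 members 28 had a stretch in the RefSeq table, and 12 held TGTGGT and 15 held GGAAA, where 14.5% and 56.9% of all 33469 stretches did. A further 3 motifs were searched on both strands: TGANTCA for AP-1 was in 2 members and 6.34% of all, GATAA for GATA factors in 5 members and 23.5% of all, and CACGTG for E-box factors in 1 member and 5.59% of all. GGAAA can overlap ETS sites, which share GGAA, and these matches describe letters and not binding.

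The neighbours of the trio were set beside it. Within 500 kb on either side, 4 other genes were tested, Nbeal1, Cyp20a1, Abi2 and Raph1. Raph1 was called higher in Obese than in Lean rats, at 0.70 (adjusted p = 8.64e-07), and none of the 4 was called in Cmpd 1 versus Food matched, where Raph1 gave -0.32 (adjusted p = 0.00802), under the fold limit.

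Foxp3, the factor of regulatory T cells, had 0.175, 0.479, 0.524, 0.325 and 0.147 CPM in Obese rats, against 0.117, 0.141, 0.166, 0.134 and 0.138 CPM in Lean rats. Obese rat 5 lay among the Lean rats. It rose by 1.22 ± 0.49 (adjusted p = 0.0433), and leaving out any of 8 single rats (all but Obese rats 1 and 5) took the adjusted p above the threshold, up to 0.12. Cmpd 1 rats had 0.106, 0.268, 0.0416, 0.0613 and 0.246 CPM, against 0.221, 0.323, 0.0678, 0.342 and 0.333 CPM in Food matched rats, a log2 fold change of -0.79 (95% interval -1.82 to 0.25) that was not called. Foxp3 overlaps Ccdc22 on the opposite strand, at a mean of 22.6 CPM, and whether counting used the strand is not given in the sources used here, so reads of both genes cannot be told apart.

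The remaining inhibitory receptors were not called. Lag3 lay at 0.56 in Obese versus Lean (adjusted p = 0.0766) and at -0.02 in Cmpd 1 versus Food matched, and the Obese versus Lean value was called without Lean rat 3 or without Obese rat 5, at up to 0.72. Havcr2, which macrophages also express, lay at 0.17 and -0.30, and Tigit at 0.73 and -0.74. Together the 8 activation and regulatory genes summed to 4.92 ± 0.77 CPM in Cmpd 1 rats, 8.34 ± 1.25 in Food matched rats, 7.61 ± 0.89 in Obese rats and 3.19 ± 0.30 in Lean rats (SD, n = 5 each). The sums of Cmpd 1 rats, 4.04 to 6.17 CPM, lay between those of Lean rats at up to 3.71 and those of Obese and Food matched rats from 6.48 CPM. That separation rests largely on Icos, which was the largest part of the sum in every group by its mean. Among the 8 genes, Icos was the only gene in which Cmpd 1 rats lay apart from all rats of the other groups. In Cd28 and Ctla4, Cmpd 1 rats overlapped Lean rats. Of the 7 tested genes 3 were called lower in Cmpd 1 versus Food matched, where 4.65% of all genes were. In Obese versus Lean 4 were called higher, where 11.3% of all genes were.

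Members were also expressed relative to the mean log2 CPM of Cd3d, Cd3e and Cd3g of the same rat, as a description without a test. Cd28 lay at -1.92 ± 0.30 in Cmpd 1 rats, -0.70 ± 0.25 in Food matched rats, -1.12 ± 0.30 in Obese rats and -1.39 ± 0.39 in Lean rats (SD, n = 5), so that on this scale Cmpd 1 rats had the lowest mean, and their range did not overlap that of Food matched or Obese rats. Icos lay at 0.52 ± 0.33, 1.51 ± 0.59, 1.08 ± 0.53 and -0.21 ± 0.44 in the same order of groups. The Cmpd 1 rats overlapped each other group in Icos, and Obese and Lean rats did not overlap.

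Ctla4 lay at -1.96 ± 1.01, -0.71 ± 0.63, -1.04 ± 0.79 and -2.28 ± 0.60 on the same scale, and Foxp3 at -3.52 ± 0.93, -2.59 ± 0.75, -2.53 ± 0.91 and -2.99 ± 0.24, with overlap between Cmpd 1 and Food matched rats in both genes. The coreceptors differed among themselves on this scale. Cd4 lay at 7.33 ± 0.44, 8.08 ± 0.43, 7.72 ± 0.58 and 6.82 ± 0.35 and Cd8b at -1.08 ± 0.55, -0.33 ± 0.32, -0.57 ± 0.58 and -1.41 ± 0.90 in Cmpd 1, Food matched, Obese and Lean rats, while the group means of Cd8a ran from 1.00 to 1.24.

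**Figure D4:**
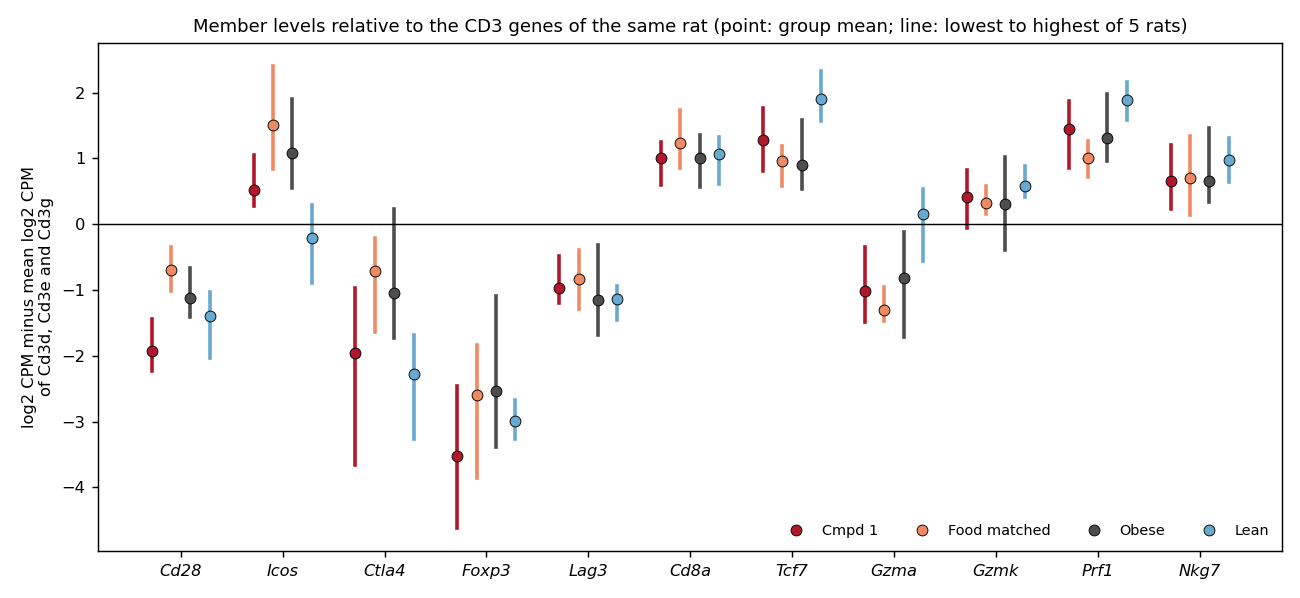
Log2 CPM of 11 members minus the mean log2 CPM of Cd3d, Cd3e and Cd3g in the same rat; points are group means and lines run from the lowest to the highest of 5 rats. Cd28, Icos and Ctla4 are lower in Cmpd 1 than in Food matched rats by their means, and Cd8a differs little between groups. Tcf7, Gzma, Gzmk, Prf1 and Nkg7 have their highest mean in Lean rats.

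Among the transcription factors the clearest was Tcf7, which encodes TCF1, a factor of naive and memory T cells. It had 4.04, 4.37, 4.64, 4.07 and 4.11 CPM in Cmpd 1 rats and 2.98, 2.90, 2.15, 3.71 and 3.83 CPM in Food matched rats. Obese rats had 3.68, 3.95, 3.53, 3.38 and 3.16 CPM, against 6.69, 4.98, 4.93, 4.01 and 4.98 CPM in Lean rats. Obese rats lay below all Lean rats and Cmpd 1 rats above all Food matched rats.

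Both Tcf7 differences passed the adjusted p and fell short of the fold limit, at -0.53 ± 0.14 in Obese versus Lean (adjusted p = 0.00395) and 0.45 ± 0.14 in Cmpd 1 versus Food matched (adjusted p = 0.0275), so neither was called. Without Lean rat 4 the Obese versus Lean value passed the limit at -0.60. Tbx21, the T-bet gene of type 1 and cytotoxic cells, and Eomes, its relative, were not called in either comparison, at 0.13 and 0.47 in Obese versus Lean and at 0.37 and -0.05 in Cmpd 1 versus Food matched.

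Gata3, a factor of type 2 T cells that other tissues express too, was called lower in Obese than in Lean rats through 1 rat. Obese rats had 0.278, 0.889, 0.385, 0.668 and 0.382 CPM, against 0.763, 4.38, 0.535, 0.369 and 0.459 CPM in Lean rats. Apart from Lean rat 2 the groups overlapped throughout. The log2 fold change was -1.34 ± 0.55 (adjusted p = 0.0499), and without Lean rat 2, which also had the most Acta1, it was -0.03 (adjusted p = 0.949). Without Lean rats 1 and 2 it was 0.19, and the call was also lost without Obese rat 1, 3, 4 or 5.

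Of the 5 tested cytotoxic rows 0 were called in Obese versus Lean, by edgeR, limma-voom and DESeq2, and 0 had an unadjusted p under 0.05 in edgeR. With 11.3% of all genes called higher, 0 of 5 is near the background. Their log2 fold changes ran from -0.39 for Gzma to 0.30 for Gzmb. Without Obese rat 1, Gzma was called lower at -0.69. Prf1, the gene of the pore-forming perforin, had 4.34, 4.52, 4.48, 5.61 and 5.06 CPM in Cmpd 1 rats and 3.18, 3.05, 2.57, 3.35 and 3.70 CPM in Food matched rats. Obese rats had 5.23, 5.28, 4.65, 4.55 and 3.95 CPM, against 5.93, 5.73, 4.73, 4.67 and 4.30 CPM in Lean rats. The Food matched rats stood alone, below every rat of the other 3 groups.

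Prf1 was called higher in Cmpd 1 than in Food matched rats, at 0.60 ± 0.12, a fold of 1.51 (adjusted p = 0.00141). Leaving out Food matched rat 2, Food matched rat 3, Cmpd 1 rat 4 or Cmpd 1 rat 5 took the value under the fold limit, to as low as 0.53, with adjusted p of at most 0.00634. In Food matched versus Obese Prf1 gave -0.58 ± 0.12 and was not called (adjusted p = 0.0799), and Obese versus Lean gave -0.10 with a 95% interval of -0.35 to 0.15.

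Gzma, the gene of granzyme A, had 0.711, 0.938, 0.625, 0.827 and 1.18 CPM in Cmpd 1 rats, 0.460, 0.466, 0.525, 0.779 and 0.945 CPM in Food matched rats and 1.99, 1.42, 0.734, 0.686 and 0.852 CPM in Obese rats, against 1.53, 1.12, 1.64, 1.51 and 1.67 CPM in Lean rats. Only the Food matched rats lay below all Lean rats. Gzma was called lower than in Lean rats in Food matched rats, at -1.23 ± 0.29 (adjusted p = 0.00119), and in Cmpd 1 rats, at -0.80 ± 0.29 (adjusted p = 0.0319). The Cmpd 1 call was lost without Cmpd 1 rat 1, 3 or 4 or without Lean rat 3 or 5, with adjusted p of up to 0.0761.

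Gzmb, the gene of granzyme B, had 0.0908, 0.101, 0.104, 0.0919 and 0.105 CPM in Cmpd 1 rats and 0.313, 0.155, 0.220, 0.0273 and 0.0185 CPM in Food matched rats. Obese rats had 0.234, 0.274, 0.140, 0.271 and 0.132 CPM, against 0.215, 0.0848, 0.203, 0.168 and 0.183 CPM in Lean rats. The groups overlapped except that Cmpd 1 rats lay below all Obese rats, and no comparison called it. These are uniquely mapped reads of 1 of 2 rows for a gene with near copies, so reads that fit several copies are missing from them. Gzmk, another granzyme, and Nkg7, a granule membrane protein, lay at 0.22 and 0.17 in Obese versus Lean and at 0.23 and 0.11 in Cmpd 1 versus Food matched, with no call.

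The other 4 group comparisons share rats with these and are given as their own values. In Cmpd 1 versus Obese rats 2 members were called lower, Cd28 and Icos, and 0 higher, where 2.80% of all genes were called lower and 0.731% higher. Cd4 passed the adjusted p at -0.50 (0.00322) under the fold limit. In Food matched versus Obese rats 0 members were called, and edgeR called 0% of all genes higher and 0% lower. Without adjustment, at a p under 0.05, the members gave 1 higher (Ubash3a, 0.48) and 2 lower (Prf1 and Gzma, -0.84), and limma-voom and DESeq2 also called 0 members. Without Food matched rat 5 there was 1 call, lower.

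Against Lean rats, Cmpd 1 rats had 8 members called higher (Cd3e, Cd6, Cd4, Lck, Zap70, Ubash3a, Icos and Ctla4) and 1 lower (Gzma), where 7.47% of all genes were called higher and 9.11% lower. Without Lean rat 1 or without Cmpd 1 rat 2 the 8 became 5, while the 1 became 2 without Lean rat 4 and 0 without Cmpd 1 rat 1 or without Cmpd 1 rat 3. Without Lean rat 3, Lean rat 5 or Cmpd 1 rat 4, 1 member other than Gzma was called lower. Food matched rats had 8 called higher (Cd4, Cd8b, Lck, Lcp2, Ubash3a, Cd28, Icos and Ctla4) and 3 lower (Tcf7 at -0.72, Gzma and Prf1 at -0.68), where 12.5% were called higher and 12.8% lower. Without Lean rats 1 and 2 left in, the 3 called lower became 1. Cd4, Lck, Icos and Ctla4 were called higher than in Lean rats in each obese group, but the Ctla4 call in Cmpd 1 rats (0.92, adjusted p = 0.0475) was lost in 6 of 10 cases with 1 rat left out (Lean rats 1, 2 and 4 and Cmpd 1 rats 1, 2 and 3), with adjusted p of up to 0.141.

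Genes beyond the members were taken from lists of the same pathways. Of 22 further signalling genes of the T cell receptor 7 were called higher in Obese than in Lean rats and 0 lower, among them Ptprc (CD45, the pan-leukocyte phosphatase) at 1.70, Vav1 at 1.59 and Dgkz at 0.74, and 2 were called lower in Cmpd 1 than in Food matched rats, Ptprc at -0.61 and Vav1 at -0.59. Most of these are shared with other leukocytes. Of all genes tested, 11.3% were called higher and 11.0% lower in Obese versus Lean. In Cmpd 1 versus Food matched 1.54% of all genes were called higher and 4.65% lower.

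The ligands of the activation receptors were measured as well. Of 7 tested, Cd80 and Cd86, which bind CD28 and CTLA4, were called higher in Obese than in Lean rats at 1.96 and 0.92, and Icoslg, the ligand of ICOS, was called lower at -0.80. Of all genes, 11.3% were called higher and 11.0% lower in that comparison. Cd80 was called lower in Cmpd 1 than in Food matched rats at -0.82, the 1 call among the 7, where 4.65% of all genes were called lower.

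Of 18 further genes of activation and memory that were tested, Il7r, the receptor of the survival factor interleukin 7, rose in Obese over Lean rats at 1.33, as did Cd69 at 1.01 and Tnfrsf18 at 0.78. Ikzf4 and Il10 were among those called lower, at -1.67 and -1.49. Of the 18, 3 were called higher and 3 lower, where 11.3% of all genes were called higher and 11.0% lower. In Cmpd 1 versus Food matched rats Il7r and Tnfrsf9 were called lower at -1.03 and -0.94, and Ikzf4 was called higher at 0.65. These were 2 lower and 1 higher of 18, where 4.65% of all genes were called lower and 1.54% higher. Among 9 further cytotoxic genes Unc13d and Ctsw, at 0.71 and 0.66, were called higher in Obese than in Lean rats, and Slamf7 was called lower in Cmpd 1 than in Food matched rats at -0.63. That was 2 higher and 0 lower of 9 in Obese versus Lean, beside 11.3% and 11.0% of all genes. In Cmpd 1 versus Food matched it was 0 higher and 1 lower, beside 1.54% and 4.65%.

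Markers of other cells moved with the groups. Of 11 tested macrophage markers 6 were called higher in Obese than in Lean rats and 2 were called lower, and 6 were called lower in Cmpd 1 than in Food matched rats, with Cd68 at 2.09 and -0.85. The shares of all genes were 11.3% higher and 11.0% lower in Obese versus Lean and 4.65% lower in Cmpd 1 versus Food matched. The summed CPM of 12 macrophage markers ranged over 4112 to 6056 in Cmpd 1 rats, 6756 to 11797 in Food matched rats, 6126 to 8259 in Obese rats and 2157 to 2897 in Lean rats. Cd4, Cd28, Icos, Ctla4 and Cd80 were called in the direction of the summed markers in both comparisons, while Icoslg was called in the opposite direction in Obese versus Lean. Gpnmb and Lyz2 were the largest parts of the sum in every obese group, at 2319 to 3267 and 1675 to 2716 CPM in Obese rats. In Lean rats they had 174 to 605 and 455 to 672 CPM. Not all listed markers kept the order of the sum. Cd163 and C1qb lay lower in Obese than in Lean rats without overlap, Cd163 at 55.5 to 95.6 against 168 to 208 CPM. Adgre1 had 39.7 to 69.4 CPM in Cmpd 1 rats and 54.9 to 61.7 CPM in Lean rats. The part of macrophage content in these values was not tested.

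The NK cell markers summed to 26.3 ± 3.30 CPM in Cmpd 1 rats, 40.4 ± 4.34 in Food matched rats, 38.1 ± 4.63 in Obese rats and 19.96 ± 1.45 in Lean rats. Of 12 tested, 3 were called higher in Obese than in Lean rats, where 11.3% of all genes were. In Cmpd 1 versus Food matched 1 was called lower, where 4.65% of all genes were. Cd244 alone averaged 9.77, 21.7, 17.2 and 3.45 CPM in Cmpd 1, Food matched, Obese and Lean rats. It carried most of the differences between the sums. Ncr1, the marker that defines NK cells, averaged 1.48, 1.30, 1.43 and 1.32 CPM in Cmpd 1, Food matched, Obese and Lean rats, and its share in the cytotoxic genes was not tested.

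A lymph node lies within the inguinal fat pad, and its stromal and homing genes differed between Obese and Lean rats. They summed to 10.7 to 19.3 CPM in Obese rats, against 84.8 to 98.7 CPM in Lean rats, with Ccl21 at a mean of 0.473 CPM in Obese rats and 29.1 CPM in Lean rats. The B cell genes Ms4a1, Cd79a and Cr2 averaged at most 0.454 CPM in any group, and 0 of 9 B cell genes was called in Obese versus Lean, where 11.3% of all genes were called higher and 11.0% lower. In Cmpd 1 and Food matched rats the lymph node list summed to 11.8 to 31.7 CPM and 10.1 to 42.7 CPM. The mast cell gene Cpa3 averaged 25.9 CPM in Obese rats and 68.2 CPM in Lean rats. The part of lymph node tissue in the member values, Tcf7 and Gzma among them, was not tested.

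**Figure D5:**
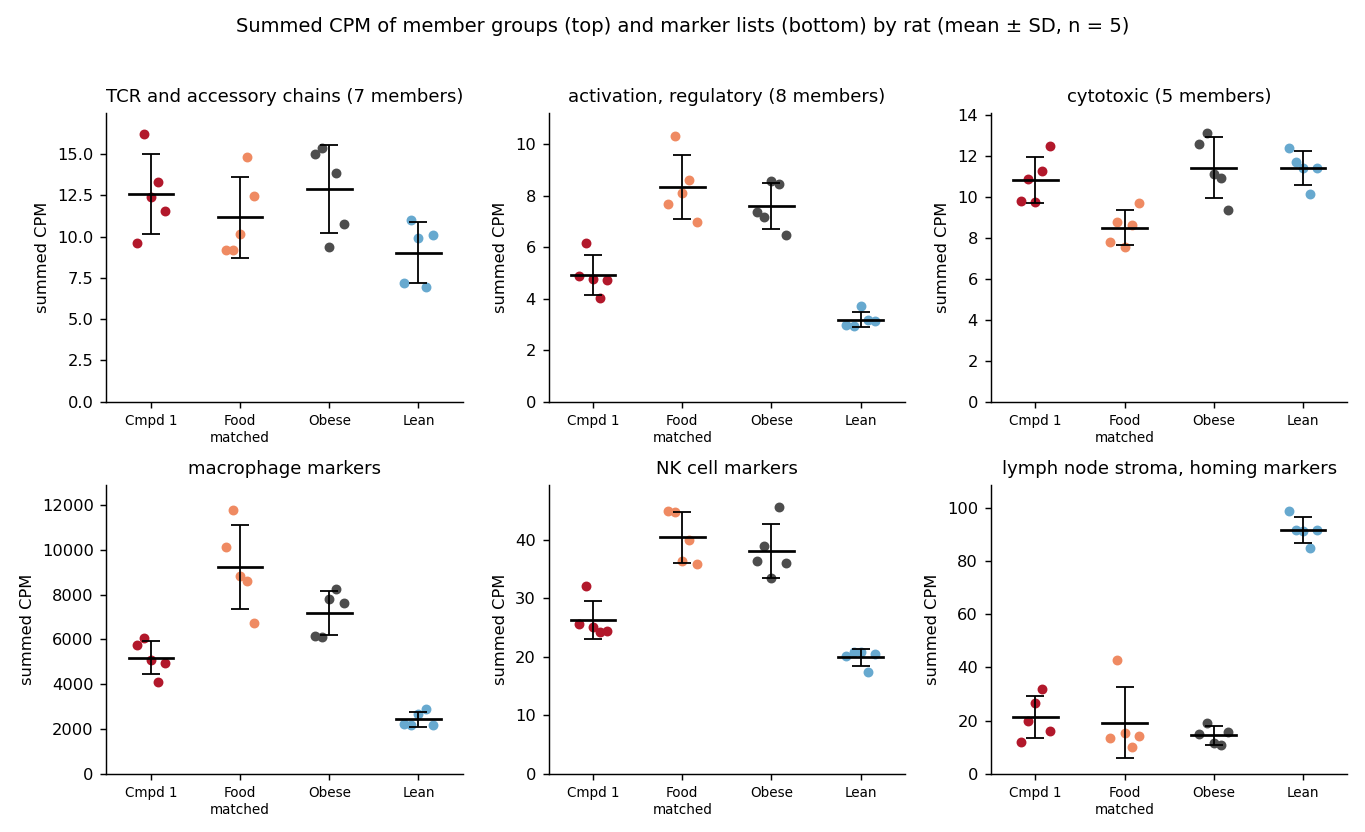
Summed CPM by rat of 3 groups of members (top) and 3 lists of markers of other cells (bottom); points are rats, the long bar is the mean and the whiskers are 1 SD (n = 5). The sums of the activation and regulatory genes, the macrophage markers and the NK cell markers rank the groups alike by their means, with Food matched highest, then Obese, Cmpd 1 and Lean, while the receptor chains, the cytotoxic genes and the lymph node list do not. The order of the NK cell sums rests largely on Cd244, and Ncr1 does not follow it. Gpnmb and Lyz2 are the largest parts of the macrophage sums in every obese group, and Icos is the largest part of the activation and regulatory sums.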

How the data were processed

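The authors deposited 1 table of raw counts per Ensembl gene for the 20 libraries of iWAT, from uniquely mapped reads aligned by STAR and counted by featureCounts on rn6 per the study's methods, with each gene's position and length. The submitters' processing notes name STAR 2.5.2, featureCounts and Subread 1.5.1 and a human build, while the gene identifiers are those of rat. Libraries came from a stranded mRNA kit, and the strand setting of counting is not given in the sources used here. The Food matched samples carry "lean" as their deposited phenotype, and their titles and treatment label were followed.

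From the counts, CPM and RPKM were computed with TMM-scaled library sizes (RPKM with the deposited gene length), and the log2 scale used a prior count of 2. A gene was dropped if 10 or more libraries had no read of it, and edgeR 4.0.16 under R 4.3.3 fitted 1 quasi-likelihood model of the 4 groups, with Benjamini-Hochberg adjustment over the 17653 genes kept. Each SE was computed as the absolute log2 fold change divided by the square root of the test's F statistic. 95% intervals used that SE and 16 residual degrees of freedom, without those added by moderation. Log2 fold changes near 0 reads depend on the prior count. limma 3.58.1 (voom), DESeq2 1.42.0, other filters and scalings, a replicate block and leaving out rats were the alternatives, and the script was tested on simulated data. The p-values weigh a group difference against the spread between rats of the same group, pooled over the 4 groups and moderated across genes.

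Members and lists were chosen with earlier results of these data known. Values by rat are given for members called in Obese versus Lean or Cmpd 1 versus Food matched and for Cd3e, Cd4, Cd8a, Foxp3, Ctla4, Pdcd1, Gzmb and Prf1, and were added after their values were seen for Tcf7 and Gzma. Outside the members, up to 4 called genes per list with the smallest adjusted p and 12 defining markers could be named. The neighbours of Cd28, and Cd244, Il10, Gpnmb, Lyz2, Cd163 and C1qb, were named after their values were seen. A few listed genes are not reported here by name. Of 131 listed further genes 122 were found. No 2 libraries of a group agreed within sampling noise.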

Additional observations from a re-analysis of the deposited data

Results flagged for a closer look

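Of 132 groups of 5 rats (33 members in 4 groups), 12 had 1 rat far from the other 4 by Dixon's test, where chance gives about 1 in 20. In Lean rats, rat 2 stood apart in Gata3 at 4.38 CPM (the others 0.369 to 0.763), in Gzma at 1.12 CPM (1.51 to 1.67) and in Gzmb at 0.0848 CPM (0.168 to 0.215), and the same library held the most skeletal muscle transcript. In Obese rats, rat 5 was low in Cd8b at 0.720 CPM (the others 1.26 to 1.56) and in Lck at 7.55 CPM (9.44 to 10.2), and rat 3 was low in Cd5 at 0.105 CPM (0.271 to 0.351). In Cmpd 1 rats, rat 2 was high in Icos at 3.02 CPM (2.30 to 2.45) and in Lag3 at 1.09 CPM (0.808 to 0.827), and rat 3 was low in Zap70 at 1.15 CPM (1.85 to 2.21) and in Tigit at 0.0208 CPM (0.0919 to 0.121). Rat 1 of that group was low in Skap1 at 0.726 CPM (1.44 to 1.87) and rat 4, its shallowest library, in Havcr2 at 0.0919 CPM (0.408 to 0.545).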

How the results depend on the processing

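Of the 33 tested members, the calls of Icos and Cd28 in Cmpd 1 versus Food matched and of Cd4, Cd6, Cd8b, Lck, Zap70, Cd28, Icos and Ctla4 in Obese versus Lean held under every alternative run. In Obese versus Lean 11 members were called higher, and 9 to 14 when single rats were left out; the 1 called lower became 0 by limma-voom, with no filter beyond any read, with only the 2 groups compared, with the replicate block, and without Lean rats 1 and 2 (alone or with Food matched rat 5), 2 with no fold threshold, and 0 to 2 with single rats left out. In Cmpd 1 versus Food matched the 1 called higher became 0 by limma-voom, DESeq2 and with no filter, 2 with no fold threshold, and 0 to 1 with single rats left out, where the 4 called lower became 2 to 4. For Cmpd 1 versus Obese the 2 called lower became 4 with no fold threshold (2 to 3 with single rats left out). In Food matched versus Obese 1 was called lower without Lean rats 1 and 2 and Food matched rat 5 (0 to 1 with single rats left out). For Cmpd 1 versus Lean the 8 higher became 5 without those 3 libraries (5 to 10 with single rats left out) and the 1 lower became 2 by DESeq2 (0 to 2). In Food matched versus Lean the 3 lower became 1 without Lean rats 1 and 2 (3 to 4 with single rats left out). Cmpd 1 versus Food matched Cd4 was -0.57 with library size alone, under the fold limit. Leaving out 3 libraries together was chosen after seeing the data.

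The called Gata3 difference in Obese versus Lean, -1.34, and several uncalled values changed sign. In Obese versus Lean, without Lean rats 1 and 2 and then also without Food matched rat 5, Gata3 became 0.19 and 0.19, Prf1 0.0533 and 0.0533, and Themis -0.21 and -0.21. Between Cmpd 1 and Food matched rats Gzmb became 0.0948 by limma-voom, Lag3 0.024 with library size alone, 0.0472 by limma-voom and 0.12 without the 3 libraries, and Cd8a 0.0033 without them. With single rats left out, Cmpd 1 versus Food matched ranged from -0.0245 to 0.27 for Cd247, -0.24 to 0.0835 for Cd3g, -0.20 to 0.0048 for Cd8a, -0.21 to 0.0928 for Eomes, -0.24 to 0.0466 for Gata3, -0.11 to 0.12 for Lag3 and -0.0181 to 0.22 for Lat, and Obese versus Lean from -0.14 to 0.30 for Havcr2 and -0.19 to 0.69 for Themis. The causes were not tested.

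Replicate numbers did not pair the rats: deviations of same-numbered rats correlated at -0.10 to 0.15, and at most 2 of 5 rats correlated best with their own number. With the replicate block 10 members were called higher and 0 lower in Obese versus Lean, and 1 higher and 3 lower in Cmpd 1 versus Food matched. Depth limits Themis, Tigit, Gzmb, Foxp3 and Cd5, with 0 to 30 reads per library.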
